A study of Mus musculus with 6 samples.

Results

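The genes described here are the DNA methylation machinery of germ cells in the fetal mouse testis, 10 genes chosen by name from the 27998 genes of the deposited count table. They fall into 3 roles. Dnmt1, Uhrf1 and Hells serve the maintenance of methylation after replication, Dnmt3a, Dnmt3b and Dnmt3l its new deposition, and Tet1, Tet2, Tet3 and Tdg its oxidation and excision. All 10 had a row in the table, and 8 had enough counts to be tested. The samples were male germ cells at embryonic day 14.5, sorted for the red fluorescent protein tdTomato and sequenced with 10x Genomics Chromium v2 chemistry. This chemistry marks every captured 3' end with a molecular barcode, the UMI, so that a transcript counts once whatever its length. There were 3 control samples, with the genotype given as wildtype, and 3 samples labelled Rb1 cKO, in which the retinoblastoma gene is conditionally deleted, here called knockouts. Both groups were of a mixed C57/B6 and 129 strain and both passed the tdTomato gate. The labels name neither the Cre driver, nor the deleted exon, nor the number of animals behind a sample, so the spread between samples may be technical.

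In the germ line of the fetal mouse, methyl groups on cytosine are first lost almost everywhere and later laid down again in male germ cells that have stopped dividing. UHRF1 recognises hemimethylated DNA behind the replication fork and recruits DNMT1, which copies the mark to the new strand, and HELLS is a chromatin remodeller that helps methylation of compacted regions. DNMT3A and DNMT3B write new marks with the help of DNMT3L, a relative without catalytic activity. TET enzymes oxidise methylcytosine, and the glycosylase TDG removes the oxidised bases. The retinoblastoma protein restrains E2F factors, which drive transcription of S phase genes.

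Both groups carried germ cell transcripts. The 10 germ cell markers, among them Dazl, Dppa3 and Pou5f1, summed to between 8555 and 9618 CPM in every library, where CPM counts the UMIs of a gene in every 1000000 UMIs of its library. Markers of other testis cells were low: the Leydig list reached at most 1.45 CPM, with Hsd3b1 and Insl3 at 0, the stromal list at most 9.21 CPM, and the mesonephric and surface epithelial list at most 2.18 CPM. The Sertoli list stood at 29.0 CPM in control 3 and at 6.71 to 13.2 CPM in the other 5 libraries. The macrophage list, carried by Pf4, stood at 47.9 CPM in control 2 and at most at 2.89 CPM elsewhere, with Ptprc at 0. The endothelial list, almost all of it Pecam1, stood at 32.2 to 53.1 CPM and the erythroid list at 6.15 to 32.8 CPM. The 38 S phase genes that are neither among the 10 nor in the lists of related genes summed to 4622 to 4927 CPM in controls and 5363 to 5541 CPM in the knockouts, without overlap. Libraries held 430 to 1354 cells and 7598511 to 17323152 UMIs. Rb1 itself (chromosome 14, 73183673 to 73325822, mm10) stood at 10.3, 8.65 and 7.13 CPM in the controls and 3.35, 3.73 and 3.64 CPM in the knockouts. Its adjusted p was 0.415 by edgeR and 0.0479 by DESeq2. Its 3' tags need not lie in the deleted part, and the antisense genes Rcbtb2 and Lpar6 overlap it.

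Promoter sequences are shown for the 3 maintenance genes, because the motif search described here matched these alone among the 10. The 10 genes all matched the RefSeq table of promoters (GRCm38.p6), in which a window runs from 250 bases before to 50 bases after a start site. Each window was searched on both strands for the E2F motif in 4 spellings of 8 letters, TTTCCCGC, TTTCGCGC, TTTGCCGC and TTTGGCGC. A match was found in at least 1 window of Uhrf1, Hells and Dnmt1 and in no window of the other 7 genes. Of all 27025 genes 2.605% held a match in at least 1 window. Of all 32851 promoters 2.265% held a match, and of the 3837 with at least 30 CpG 5.06% did. The matching windows of Uhrf1, Hells and Dnmt1 had 33, 34 and 33 CpG. Some windows of other members had more CpG and no match, with 47 in a window of Dnmt3a and 57 in that of Tet2. In the sequences the match is in capitals, and a minus strand sequence is written as the gene reads.
Uhrf1, chr17:56304063-56304312, plus strand: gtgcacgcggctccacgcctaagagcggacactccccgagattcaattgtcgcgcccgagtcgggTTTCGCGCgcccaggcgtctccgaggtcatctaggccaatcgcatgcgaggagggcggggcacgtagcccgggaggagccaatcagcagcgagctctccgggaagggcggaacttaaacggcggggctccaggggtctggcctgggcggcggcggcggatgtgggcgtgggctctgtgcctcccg
Hells, chr19:38930918-38930945, plus strand: accaccgggtTTTCCCGCgaaagagaag
Dnmt1, upstream match, chr9:20952825-20952852, minus strand: gtttccgcgcGCGCGAAAaagccggggt
Dnmt1, downstream match, chr9:20952574-20952600, minus strand: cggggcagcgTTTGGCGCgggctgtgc
The Uhrf1 stretch ends at the base before the second of 2 start sites in the table and overlaps no exon of GENCODE M21. Its match begins 185 bases before that start. The Hells match begins 62 bases before the start, and the Dnmt1 matches lie 219 bases before and 34 bases into the third of 3 start sites. The Hells and Dnmt1 matches lie in annotated UTR exons within those genes. A match describes the letters only.

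Uhrf1 (chromosome 17, 56303321 to 56323486) had the largest fitted difference of the 8 tested members, and it was higher in every cKO library than in every control. Levels over all cells were scaled between libraries by TMM factors, and p-values were adjusted over all genes tested by the Benjamini-Hochberg method. Uhrf1 stood at 43.4, 35.5 and 21.1 CPM in controls 1 to 3 and at 51.9, 45.3 and 50.8 CPM in knockouts 1 to 3. The groups did not overlap, and the spread was wider among controls, with means of 33.4 ± 11.3 and 49.3 ± 3.57 CPM (SD over 3 libraries each). The log2 fold change was 0.57 ± 0.26 (SE; edgeR adjusted p 0.994), so the difference did not pass. Without control 3 the log2 fold change was 0.32 ± 0.11 (SE), and without control 1 it was 0.83 ± 0.22 (SE). Control 3 had the highest Sertoli marker level and also the lowest sum of the S phase genes, 4622 CPM. The S phase genes differed between the groups as well, and their part in the Uhrf1 difference was not tested.

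Hells (chromosome 19, 38930915 to 38971051) had the most UMIs of the 10, 51298 in all. It stood at 698, 659 and 633 CPM in controls and 724, 657 and 844 CPM in the knockouts. The groups overlapped, since cKO 2 lay among the controls while cKO 3 lay above every other library. The log2 fold change was 0.16 ± 0.09 (SE; edgeR adjusted p 0.994), and it was 0.06 without cKO 3 and 0.24 without cKO 2. Dnmt1 (chromosome 9, 20907209 to 20959888), the maintenance methyltransferase, stood at 112, 115 and 115 CPM in controls and 119, 115 and 128 CPM in the knockouts. Its log2 fold change was 0.08 ± 0.07 (SE) and its approximate 95% interval ran from -0.06 to 0.23. Without cKO 3 the value was 0.04. Summed over the 3 maintenance genes, the level before scaling was 806 ± 58.3 CPM in controls and 915 ± 92.4 CPM in the knockouts (SD over 3 libraries each), most of it Hells.

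Transcripts of the de novo enzymes were few. Dnmt3a (chromosome 12, 3806007 to 3914443) stood at 18.5, 19.0 and 14.6 CPM in controls and 13.9, 18.4 and 18.5 CPM in the knockouts, with control 3 and cKO 1 the lowest. Its log2 fold change was -0.02 ± 0.15 (SE) and its approximate 95% interval ran from -0.32 to 0.28. Dnmt3b (chromosome 2, 153649450 to 153687730) stood at 2.93, 4.003 and 3.54 CPM in controls and 3.35, 3.17 and 3.95 CPM in the knockouts, from 254 UMIs in all. Its log2 fold change was 0.02 ± 0.22 (SE) and its approximate 95% interval ran from -0.41 to 0.45. Dnmt3l (chromosome 10, 78041947 to 78063622) gave 2 UMIs in control 1 and 0 in each of the other 5 libraries. A count of 0 allows up to 3 counts, which is 0.395, 0.173, 0.384, 0.238 and 0.178 CPM in controls 2 and 3 and cKO samples 1 to 3, counting error only.

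The make-up of the Dnmt3 transcripts differed between the groups by less than the spread between libraries. Dnmt3a gave 82.9% ± 2.55 of Dnmt3 UMIs in controls and 82.8% ± 2.38 in the knockouts, and Dnmt3b gave 16.8% ± 3.002 and 17.2% ± 2.38 (SD over 3 libraries each). The 2 Dnmt3l UMIs both came from cells of the authors' cluster 1.

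Among the oxidation genes, Tet1 carried nearly all UMIs. Tet1 (chromosome 10, 62804570 to 62908996) stood at 125, 129 and 120 CPM in controls and 125, 118 and 143 CPM in the knockouts, with overlap and with cKO 3 highest. Its log2 fold change was 0.05 ± 0.09 (SE) and its approximate 95% interval ran from -0.12 to 0.22. Tet1 gave 97.1% ± 0.599 of Tet UMIs in controls and 97.1% ± 0.110 in the knockouts (SD over 3 libraries each). Tet2 (chromosome 3, 133463679 to 133545139) stood at 2.93, 4.13 and 2.76 CPM in controls and 2.73, 2.77 and 3.40 CPM in the knockouts, from 223 UMIs. Tet3 (chromosome 6, 83362373 to 83459084) had too few counts to be tested, 2, 5 and 9 UMIs in controls and 7, 11 and 12 UMIs in the knockouts. In CPM without scaling this is 0.183, 0.658 and 0.520 in controls and 0.897, 0.873 and 0.714 in the knockouts, without overlap. Tested without a low-count filter, Tet3 had a log2 fold change of 0.84 ± 0.56 (SE) and an edgeR adjusted p of 0.931.

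Tdg (chromosome 10, 82629828 to 82650799) was lower in each cKO library than in each control. It stood at 22.1, 23.0 and 21.5 CPM in controls and 19.9, 20.5 and 19.8 CPM in the knockouts. The groups did not overlap although the difference was small, with a log2 fold change of -0.14 ± 0.10 (SE) and an edgeR adjusted p of 0.994. With each cell thinned to 5000 UMIs, the log2 fold change was 0.00. The antisense gene Glt8d2, which overlaps Tdg, has its own row with 42 UMIs.

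**Figure D1:**
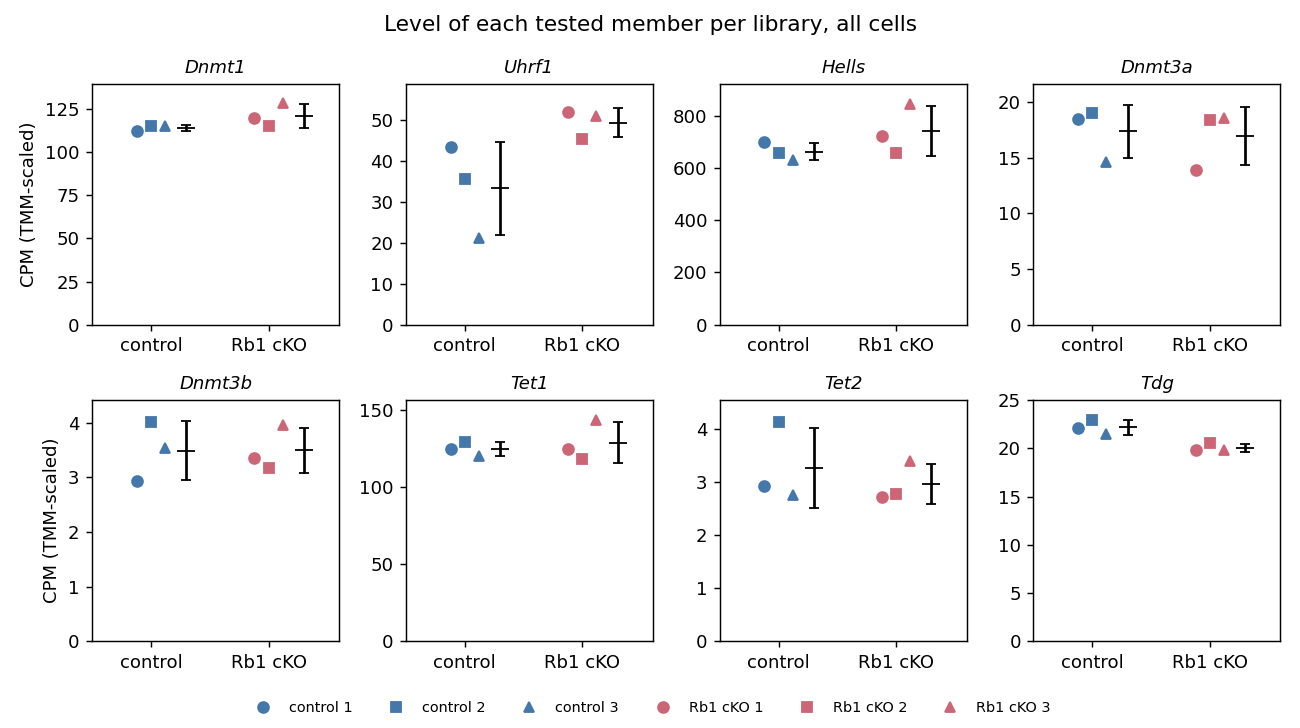
Level of each of the 8 tested members in every library, in TMM-scaled CPM on linear axes from 0, with control libraries in blue, Rb1 cKO libraries in red, and the mean and SD (n = 3 each) in black. Uhrf1 and Tdg show no overlap of the groups, Uhrf1 with the cKO libraries higher and Tdg with them lower, while the other 6 overlap.

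By edgeR 0 of 8 tested members passed an adjusted p of 0.05, where 0% of the 11540 genes tested did, and 0 of 8 had an unadjusted p under 0.05, where 3.51% of all genes did. By DESeq2, 0 members and 3 genes passed the adjusted threshold. The unadjusted p of Uhrf1 was 0.0655 by edgeR. Over the alternative settings it ran from 0.00694 by DESeq2 to 0.145 by edgeR without cKO 1. The groups did not overlap for 2 of the 8 members, Uhrf1 and Tdg, against 8.93% of all genes tested. Of the 8 members 5 had a positive log2 fold change, against 50.1% of all genes, with a median of 0.03 beside 0.00 for all genes.

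Genes that work with the machinery also gave 0 calls in either direction. Over 5 lists of partners, 51 of 53 genes were tested, and 2 had an unadjusted p under 0.05 by edgeR, both higher in the knockouts, against 3.51% of all genes tested in either direction. They were 2810417H13Rik, or Pclaf, a PCNA-associated factor of the replication fork, and Gadd45g, a stress-response gene. Among the maintenance partners 5 of 9 had log2 fold changes above 0, and the list had a median of 0.03. In that list 2810417H13Rik stood at 35.5 ± 1.49 CPM in controls and 53.1 ± 3.37 CPM in the knockouts (SD over 3 libraries each), with an edgeR adjusted p of 0.415. Dppa3, whose protein keeps UHRF1 from chromatin, stood at 2625 ± 169 and 2601 ± 301 CPM.

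Of the de novo partners 10 of 12 tested had log2 fold changes above 0, and the list had a median of 0.10. Tex19.1, a germ cell gene that restrains retrotransposons, stood at 242 ± 65.0 CPM in controls and 243 ± 18.8 CPM in the knockouts. Morc1, needed for silencing of transposons in male germ cells, stood at 8.54 ± 4.14 and 5.16 ± 0.546 CPM, a log2 fold change of -0.73 with an edgeR adjusted p of 0.994. Of the list of methylation readers and related proteins 5 of 8 tested were positive, with a median of 0.08. Mbd3, of the NuRD complex, had 260 ± 23.7 and 246 ± 6.95 CPM, and Zbtb33, or Kaiso, had a log2 fold change of 0.31 ± 0.21 (SE). Of the base excision genes 8 of 13 were positive, with a median of 0.05. Apex1, the main abasic site nuclease, had 349 ± 13.3 and 354 ± 24.7 CPM, and Neil1, a glycosylase, had a log2 fold change of -0.74 ± 0.34 (SE) from 14 to 44 UMIs a library. Of the genes for methyl donor and cofactors 6 of 9 were positive, with a median of 0.01. Mat2a, which makes S-adenosylmethionine, had 185 ± 3.50 and 210 ± 20.8 CPM (SD over 3 libraries each).

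The authors' 5 clusters carry numbers only. Cluster 0, with 2210 cells, was led by Stra8, Tcf19 and Ccne1, and cluster 1, with 1863 cells, by the mitotic genes Cdc20, Ccnb1 and Hmmr. Cluster 2, with 640 cells, was led by histone genes such as Hist1h1e. Cluster 3, with 343 cells, was led by Pf4 and Rpgrip1, and cluster 4, with 98 cells, by Mgarp and Phlda3. Leading genes come from counts pooled over libraries, and Pf4 led cluster 3 mainly through control 2. Over all cells the macrophage list, carried by Pf4, stood at 47.9 CPM in control 2 and at most at 2.89 CPM elsewhere. The S phase genes summed to 5899 ± 433 CPM in cluster 0, 5444 ± 328 in cluster 2, 5209 ± 361 in cluster 3 and 4054 ± 360 in cluster 1 (SD over 6 libraries). In cluster 4 they summed to 5579 ± 423 CPM, from libraries with as few as 10 cells. Cells of cluster 3 in control 3 stood apart, 25 cells with a median of 4654 UMIs, where the other libraries had medians of 12699 to 15999. Since the clusters were built from all genes of these cells, levels by cluster are given without a test.

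Among clusters 0 to 3, in which every library had 20 cells or more, each maintenance gene had its lowest mean in the mitotic cluster 1. Uhrf1 stood at 52.2 ± 17.7 CPM in cluster 2, 51.7 ± 14.0 in cluster 0, 43.0 ± 16.0 in cluster 3 and 24.1 ± 7.24 in cluster 1 (SD over 6 libraries). It was higher in cluster 0 than in cluster 1 in 6 of 6 libraries, by 1.74 to 3.01 times. The means of clusters 2, 0 and 3 differed by less than the spread between libraries, though clusters 0 and 2 each exceeded cluster 3 in 5 of 6 libraries. Hells stood at 792 ± 89.4 CPM in cluster 0, 745 ± 88.3 in cluster 2, 703 ± 50.5 in cluster 3 and 579 ± 61.4 in cluster 1, and cluster 0 exceeded cluster 1 in 6 of 6 libraries by 1.28 to 1.42 times. Dnmt1 had another order, with 148 ± 14.1 CPM in the histone-led cluster 2, then 125 ± 6.92 in cluster 0, 110 ± 10.5 in cluster 3 and 97.4 ± 5.86 in cluster 1. Cluster 2 exceeded cluster 0 for Dnmt1 in 6 of 6 libraries, which Uhrf1 did in 2 and Hells in 0.

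Over the same 4 clusters, Tet1 stood at 131 ± 13.4 CPM in cluster 1 and 125 ± 12.8 in cluster 2. It stood at 125 ± 8.52 CPM in cluster 0 and 124 ± 14.2 in cluster 3. These means differed by less than the SD between libraries, but within libraries cluster 0 exceeded cluster 1 for Tet1 in only 1 of 6. Of these clusters, Tdg had its highest mean in cluster 1, 23.4 ± 3.46 CPM, and its lowest in cluster 0, 19.2 ± 1.43 CPM, and was higher in cluster 1 in 5 of 6 libraries. Dnmt3a was lowest in cluster 2, at 13.5 ± 2.63 CPM, below cluster 0 at 17.0 ± 2.84 CPM in 6 of 6 libraries, though the ranges overlapped. Dnmt3b stood at 4.11 ± 0.560 CPM in cluster 1, 3.30 ± 0.895 in cluster 2, 3.07 ± 0.791 in cluster 0 and 2.79 ± 2.41 in cluster 3. Cluster 0 exceeded cluster 1 for Dnmt3b, and cluster 2 for Tdg, in 0 of 6 libraries each. Tet2 means ran from 2.23 CPM in cluster 1 to 4.39 CPM in cluster 3 over these 4 clusters, with SDs up to 3.14 CPM, and Tet3 means were at most 1.19 CPM. In cluster 4 only control 3 and cKO 3 had 20 cells or more, with Uhrf1 at 15.2 and 52.4 CPM. There Hells stood at 482 and 633 CPM, Tdg at 6.06 and 13.98 CPM and Tet2 at 3.03 and 6.99 CPM, the last from 3 UMIs. Over all libraries cluster 4 gave only 56 UMIs of Uhrf1 and 19 of Tdg, so these values rest on few counts and 1 library per group.

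**Figure D2:**
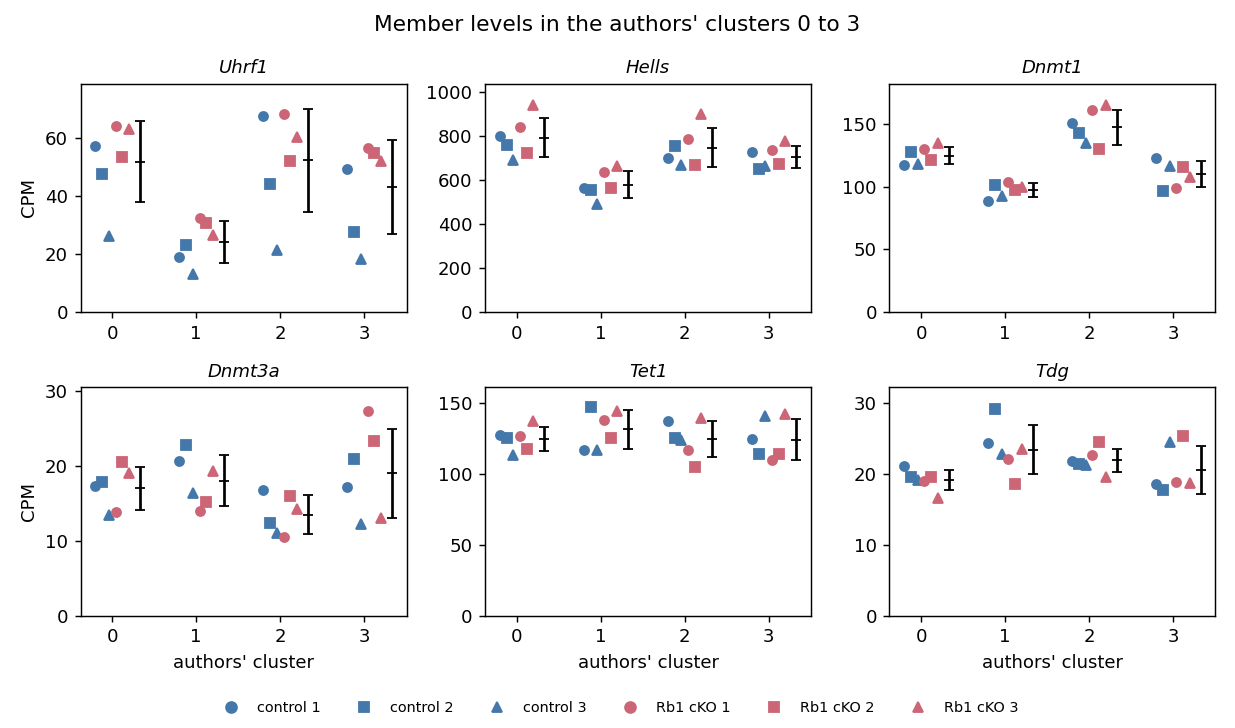
Level of 6 members in the authors' clusters 0 to 3, in CPM of counts summed per library and cluster on linear axes from 0, with 1 point per library and the mean and SD over 6 libraries in black. Uhrf1, Hells and Dnmt1 have their lowest means in cluster 1, at 24.1, 579 and 97.4 CPM, while Tet1 stays between 124 and 131 CPM.

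Cells were also placed by the level of the 38 S phase genes, in 4 bins with limits at 0.402%, 0.506% and 0.610% of a cell's UMIs. The bins are ranges of a score and not cell types. Uhrf1 and Hells are themselves on the S phase list from which the 38 genes were taken, so a rise of either is no independent finding. Uhrf1 had the largest ratio between the highest and the lowest bin of the 6 members with over 1000 UMIs, going from 22.3 ± 6.63 CPM in the lowest bin to 30.1 ± 6.83, 46.8 ± 12.2 and 62.8 ± 16.5 CPM in the highest (SD over 6 libraries). The highest bin exceeded the lowest by 1.94 to 3.78 times in 6 of 6 libraries. Hells went from 543 ± 49.4 to 843 ± 95.3 CPM and was higher at every step in 6 of 6 libraries. Dnmt1 went from 96.5 ± 4.67 to 128 ± 3.97 CPM in the third bin and 129 ± 7.96 CPM in the highest, so that its last step was within the spread.

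Tet1, Dnmt3a and Tdg did not follow the S phase genes. Tet1 was at 128 ± 16.4 CPM in the lowest bin and 120 ± 10.7 CPM in the highest, Dnmt3a at 17.3 ± 3.87 and 16.1 ± 1.91 CPM, and Tdg at 21.9 ± 2.56 and 19.06 ± 2.55 CPM. The highest bin was above the lowest in 1 of 6 libraries for Tet1, 3 for Dnmt3a and 1 for Tdg.

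Fewer cells of the cKO libraries lay in the lowest S phase bin, 13.5%, 14.4% and 20.4%, than of the controls, 36.5%, 31.9% and 33.3%. Within each of the 4 bins the groups overlapped for Uhrf1. In the lowest bin it stood at 19.9, 27.3 and 12.3 CPM in controls and 31.5, 23.0 and 19.97 CPM in the knockouts, and in the highest at 75.3, 53.0 and 34.1 CPM and 76.7, 65.8 and 71.6 CPM. Control 3 was the lowest library in all 4 bins. With the 4 bins weighted equally in every library, Uhrf1 was at 35.5 ± 11.6 CPM in controls and 45.4 ± 4.18 CPM in the knockouts (SD over 3 libraries each), a ratio of 1.28 where the plain ratio was 1.49. The same weighting took Hells from 1.13 to 1.05 and Dnmt1 from 1.07 to 1.02, and left Tet1 at 1.04 and Tdg at 0.922 beside a plain 0.913. These ratios are a description, since the score that forms the bins differs between the groups.

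**Figure D3:**
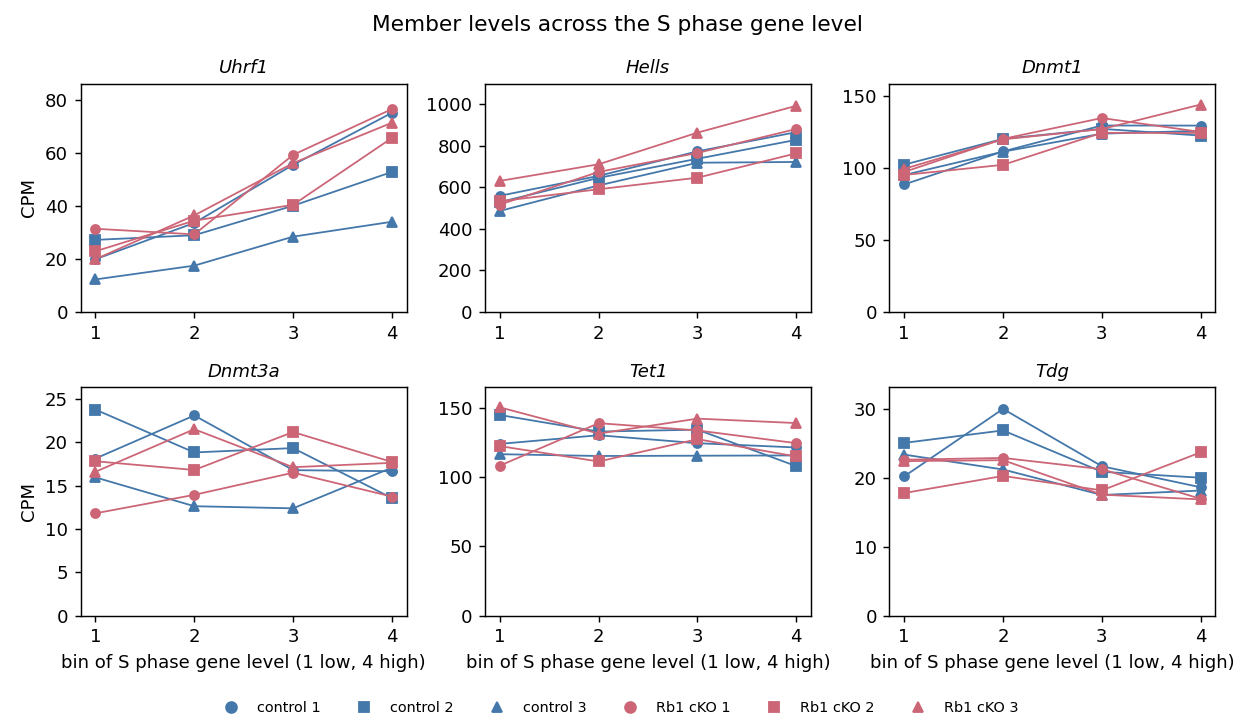
Level of 6 members in 4 bins of rising S phase gene level, in CPM on linear axes from 0, with 1 line per library, controls in blue and Rb1 cKO in red. Uhrf1 climbs from a mean of 22.3 to 62.8 CPM, a ratio of 2.81, Hells and Dnmt1 climb by ratios of 1.55 and 1.33, and Tet1, Dnmt3a and Tdg show no climb, with control 3 the lowest line for Uhrf1.

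Tested within single clusters, the difference in Uhrf1 had the same direction in each of the 4 clusters with enough cells. The clusters come from the same libraries, so these directions are not independent of each other or of the fit over all cells. In cluster 1, where its level was lowest, Uhrf1 stood at 19.13, 22.8 and 13.7 CPM in controls and 31.4, 30.4 and 27.3 CPM in the knockouts. The groups did not overlap there, as for 9.24% of genes tested in that cluster, and the log2 fold change was 0.71 ± 0.18 (SE; edgeR adjusted p 0.9997). Its unadjusted p there, 0.00177 by edgeR, was the smallest of any member in any cluster, and over 10 alternatives the adjusted p ran from 0.0409, without a low-count filter, to 0.99998. Without control 3 the log2 fold change in cluster 1 was 0.50. In cluster 3 the groups did not overlap either, against 9.56% of genes there, with 50.5, 27.8 and 19.7 CPM in controls and 56.5, 55.7 and 55.4 CPM in the knockouts and a log2 fold change of 0.58 ± 0.26 (SE). It was 0.49 without control 3, whose cells of this cluster are shallow, 0.36 without control 2 and 1.11 without control 1.

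In clusters 0 and 2 the Uhrf1 groups overlapped. The log2 fold changes were 0.47 ± 0.27 and 0.51 ± 0.41 (SE), with edgeR adjusted p of 0.9995 and 0.9996. Without control 3 they were 0.19 and 0.07, and without control 1 they were 0.74 and 1.01. Hells had positive values in all 4 clusters, from 0.09 in cluster 3 to 0.19 in cluster 1. Without cKO 3 they were 0.02, 0.12, 0.00 and 0.01 in clusters 0 to 3, and without control 2 the value in cluster 3 was 0.04. Dnmt1 had 0.08, 0.07 and 0.08 in clusters 0, 1 and 2 and -0.04 in cluster 3. It was 0.020 in cluster 0 without cKO 3, 0.048 there without control 1, and 0.033 in cluster 1 without control 1.

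Dnmt3a had values of opposite sign in the largest clusters, with 0.16 ± 0.19 in cluster 0 and -0.28 ± 0.19 in cluster 1 (log2 fold change ± SE). The difference between these effects, tested with the sample as a term, was -0.42 ± 0.19 (SE; edgeR adjusted p 0.952), and it was -0.27 without cKO 2 and -0.57 without cKO 3. With 1 library left out, the value ran from 0.054 to 0.30 in cluster 0 and from -0.47 to -0.18 in cluster 1. Tet2, with few UMIs, had a wider difference of -0.90 ± 0.50 between clusters 1 and 0 (SE; edgeR adjusted p 0.995). Tet1 had the smallest unadjusted p of the members in the other pairs, with a difference of -0.16 ± 0.10 between clusters 2 and 0 and of -0.21 ± 0.11 between clusters 2 and 1 (SE), at edgeR adjusted p of 0.987 and 0.956. For Uhrf1 the effect in cluster 1 minus that in cluster 0 was 0.20 ± 0.15 (SE; edgeR adjusted p 0.996). It was -0.020 without control 1, 0.33 without control 3, 0.080 without cKO 2 and 0.34 without cKO 3. In the 3 pairs 0 members were called, where edgeR called 0.0192%, 0.021% and 0.0525% of all genes.

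Of the 8, 7, 6 and 6 members tested in clusters 0 to 3, 0 passed the adjusted threshold by edgeR or DESeq2, where edgeR called 0% of all genes in each. An unadjusted p under 0.05 by edgeR was seen for 0, 2, 0 and 1 of them, against 3.88%, 3.37%, 4.04% and 3.37% of genes tested. These were Uhrf1 and Hells in cluster 1 and Uhrf1 in cluster 3. Beside Uhrf1, 1 other member did not overlap between the groups in a cluster, Tet2 in cluster 0, against 9.66% of genes tested there. In cluster 0 Tet2 stood at 2.52, 3.16 and 3.29 CPM in controls and 4.38, 3.63 and 3.88 CPM in the knockouts, from 109 UMIs. Its log2 fold change there was 0.38 ± 0.29 (SE; edgeR adjusted p 0.9995), while over all cells it was -0.10 ± 0.25 (SE). In cluster 2 the groups overlapped for every member tested, where they did not for 9.34% of genes.

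**Figure D4:**
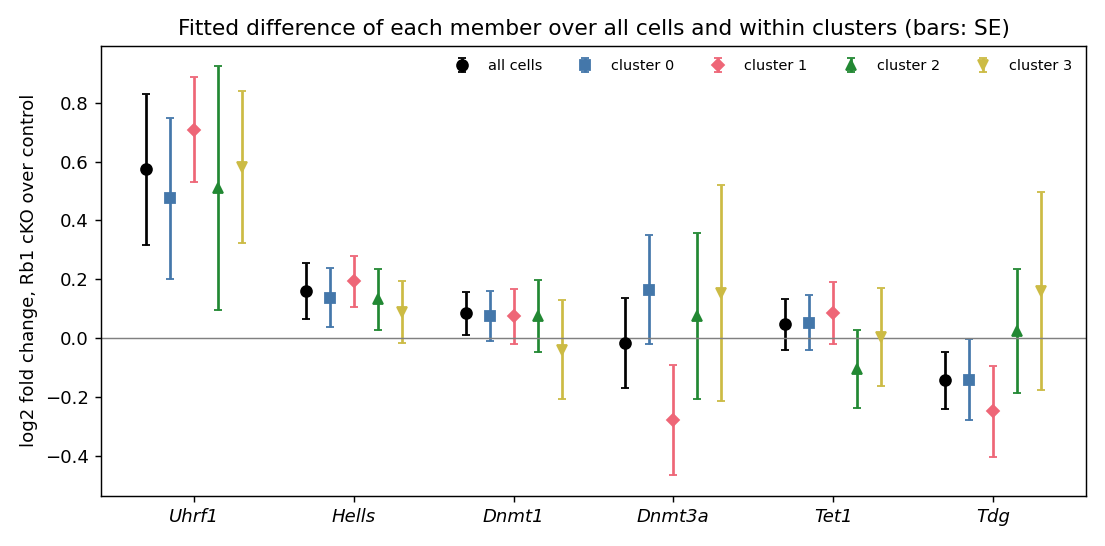
Fitted log2 fold change of Rb1 cKO over control with its SE for 6 members, over all cells in black and within the authors' clusters 0 to 3 in colour. Uhrf1 lies above 0 in all 5 fits, from 0.47 to 0.71, and Hells from 0.09 to 0.19, while Dnmt1, Dnmt3a, Tet1 and Tdg lie on both sides of 0. The fits share the same libraries and are not independent.

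The genes most like each role's most abundant member were sought over 26 summed libraries of 1 sample and cluster each, among 4953 genes, by Pearson correlation of log2(CPM + 1). The points share samples and clusters, so the values only describe. The 4953 genes had means of at least 20 CPM there, while Dnmt3a itself had 16.7 CPM. Control 3 and cKO 3 of cluster 4 are among the points. There control 3 stood low, with Tet1 at 78.8 CPM and Tdg and Dnmt3a at 6.06 CPM each. How far the r values rest on that point was not tested. Hells was most like Pold2, a DNA polymerase delta subunit (r = 0.82), Mcm3, of the replicative helicase (0.81), and Uhrf1 (0.80). Tet1 was most like Zfp512, Med24 and Sucla2, with r between 0.75 and 0.82, and Dnmt3a most like Nfkbia, Usp14 and Mest, with r between 0.74 and 0.79. Among the members, Dnmt1 had r of 0.66 with Hells and 0.65 with Uhrf1, and Tet1 had r of 0.60 with Tdg. Dnmt3a had r of -0.25 with Dnmt1.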

How the data were processed

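The deposited table holds UMI counts per gene and cell barcode as whole numbers, and a deposited second file gives the authors' sample name and cluster number of each barcode, from 5 clusters. Per the submitters' processing notes, Cell Ranger, Seurat 3.0 and mm10 were used. The annotation release and any filter on cells or doublets are not given in the sources used here. Of 5160 barcodes, 5154 entered, each with 500 or more genes detected and less than 10% mitochondrial UMIs. Of 5145 barcode sequences 9 occurred in more than 1 library. The members and lists were chosen with earlier results of these data known.

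Counts were summed per library, or per library and cluster where each library had at least 20 cells, so that the library was the replicate. Sums went into edgeR (4.0.16, R 4.3.3), whose quasi-likelihood F test was run two-sided after filterByExpr, with TMM factors and robust dispersion. Benjamini-Hochberg adjustment covered every gene in the fit, at a threshold of 0.05. An SE is the log2 fold change divided by the root of the F statistic, and intervals are 1.96 SE either way. With so few libraries such intervals are too narrow. For Uhrf1 over all cells it ran from 0.07 to 1.08, though its unadjusted p was 0.0655 by edgeR. The effects of 2 clusters were compared in 1 fit with the sample as a term. Per-library values over all cells and the tests within clusters use TMM-scaled CPM, and family shares and levels by cluster or S phase bin use CPM without factors. The named genes are the 10 members, Rb1, the most abundant and most changed gene of each partner list, any that passed, and the 3 genes most like 1 member per role. 1 gene that this rule names is not reported here. The leading genes of clusters and Gadd45g were named after their values were seen. Alternatives were DESeq2 1.42.0, RLE factors, no low-count filter, a replicate block, all barcodes, Scrublet doublets removed (160 cells, scanpy 1.11.5), cells thinned to 5000 UMIs, and each library left out.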

Additional observations from a re-analysis of the deposited data

How the results depend on the processing

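Of 398 alternative values for 38 member values, 370 kept their direction and 1 passed the threshold, Uhrf1 in cluster 1 without a low-count filter (edgeR adjusted p 0.0409). The cause was not tested. For differences between clusters, the 38 hold only the member with the smallest unadjusted p of each pair. Differences outside the 38 also reversed, as for Uhrf1 in cluster 1 minus 0, which was -0.020 without control 1. The count of all genes called by edgeR, 0 over all cells, was 3 with DESeq2 and 6 without the filter. Without the filter it was 15, 8, 3 and 17 in clusters 0 to 3, each 0 as reported, and it was 4 in place of 2 for cluster 1 minus cluster 0. With RLE factors it was 3 for cluster 2 minus cluster 1. With 1 library left out it ran from 0 to 4 over all cells, 0 to 2 in clusters 0, 1 and 2, 0 to 3 in cluster 3, 1 to 6 for cluster 1 minus 0, 2 to 6 for 2 minus 0 and 3 to 8 for 2 minus 1.

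Same-numbered samples had correlations of deviations of -0.13, 0.23 and 0.20, and the other pairs ran from -0.30 to 0.16. These few values cannot tell whether same-numbered samples share more than a number. With the replicate number as a block, 0 genes were called over all cells and 1 in cluster 3, and the log2 fold change of Uhrf1 over all cells was 0.63. The block reversed Dnmt3b in cluster 1, to -0.012, and Tet1 in cluster 3, to -0.079. Other reversals were Dnmt3a and Tdg over all cells with thinned cells, 0.12 and 0.00047, Dnmt3b with doublets removed, -0.057, Dnmt1 in cluster 3 without the filter, 0.0077, and Tet1 in cluster 3 with RLE factors, -0.0023.

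With 1 library left out, values that changed sign over all cells ran from -0.13 to 0.095 for Dnmt3a, -0.092 to 0.11 for Dnmt3b, -0.037 to 0.10 for Tet1 and -0.22 to 0.079 for Tet2. In cluster 0 they ran from -0.39 to 0.12 for Dnmt3b and -0.027 to 0.11 for Tet1, and in cluster 1 from -0.098 to 0.11 for Dnmt3b. In cluster 2 they ran from -0.0096 to 0.18 for Dnmt1, -0.086 to 0.26 for Dnmt3a and -0.061 to 0.11 for Tdg, and in cluster 3 from -0.17 to 0.086 for Dnmt1 and -0.16 to 0.083 for Tet1. Dnmt3b, Dnmt3l, Tet2 and Tet3 are limited by depth, at 254 UMIs or fewer each.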
